A study of Mus musculus with 12 samples.

Results

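The genes described here are 4 chemokine genes, Cxcl1, Cxcl2, Cxcl3 and Cxcl5, whose proteins draw neutrophils into tissue, and 2 alarmin genes, S100a8 and S100a9, whose proteins neutrophils and monocytes store and release. They were followed in lymph node dendritic cells, which present antigen to T cells, from C57BL/6 mice. Members were chosen by name: a probe set was taken where the platform annotation gave it a single gene symbol and that symbol was one of the 6. This gave 8 of 45101 probe sets and 6 of 18194 named genes, 3 of the probe sets belonging to Cxcl1 and 1 to each other gene. All 6 genes lay above the filter on low signals, so all 6 were among the 12792 genes tested.

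The study hybridised 12 arrays, 2 (named A and B) for each of 6 groups. Cells with a p38a-knockout label (KO) were sampled after 0, 2 and 4 h with Pam3CSK4, and cells with a wild-type label (WT) after the same times. Mapk14 encodes p38α, a kinase switched on by stress and by inflammatory signals. Pam3CSK4 is a synthetic triacylated lipopeptide that activates Toll-like receptor TLR2, and was added at 1 mg/ml as labelled. No array of untreated cells at 2 or 4 h was among those analysed, so an effect of the ligand and one of time in culture cannot be told apart. The Cre driver or the cell type in which the knockout arose, and whether arrays A and B stem from different mice or cultures, are not stated in the labels. The p-values below therefore measure the spread between these arrays, which may be technical. By its title the series asks which gene expression in dendritic cells depends on p38α.

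CXCL1, CXCL2, CXCL3 and CXCL5 carry the Glu-Leu-Arg (ELR) motif before their first cysteines and act on neutrophils through the receptor CXCR2. In myeloid cells Toll-like receptors switch on Cxcl1, Cxcl2 and Cxcl3 through NF-kB, and AU-rich elements make their messages short-lived unless p38α and its substrate kinase MK2 hold back the decay protein tristetraprolin. In mice Cxcl5 is known mainly as a product of epithelial and stromal cells. S100A8 and S100A9 are small calcium-binding proteins that pair as calprotectin, bind zinc and manganese, and activate TLR4 when released. They are among the most abundant cytosolic proteins of neutrophils.

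The promoters are shown because those of Cxcl1, Cxcl2 and Cxcl3 share a run of letters that was not found in S100a8 and S100a9. Whether it bears on the changes of these genes was not tested. Each line below gives the 120 bases before the annotated start of the gene, 5′ to 3′ on the gene's own strand, from RefSeq sequences on GRCm38.p6. The table held 5 of the 6 genes, and Cxcl5 was the one without an entry. Capitals mark GGAATTTCC, a kB-type sequence of the kind NF-kB binds, and ATAAAAG, which resembles the core of a TATA box.
Cxcl1 promoter, chr5:90891125-90891244, plus strand: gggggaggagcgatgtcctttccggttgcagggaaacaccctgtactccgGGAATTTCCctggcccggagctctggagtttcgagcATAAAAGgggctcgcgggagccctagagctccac
Cxcl2 promoter, chr5:90903779-90903898, plus strand: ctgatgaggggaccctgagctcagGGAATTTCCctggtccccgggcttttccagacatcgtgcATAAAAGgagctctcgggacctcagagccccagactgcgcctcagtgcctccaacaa
Cxcl3 promoter, chr5:90785981-90786100, plus strand: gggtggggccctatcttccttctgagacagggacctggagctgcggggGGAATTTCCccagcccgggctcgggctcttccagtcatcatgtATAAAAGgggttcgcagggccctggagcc
S100a8 promoter, chr3:90668951-90669070, plus strand: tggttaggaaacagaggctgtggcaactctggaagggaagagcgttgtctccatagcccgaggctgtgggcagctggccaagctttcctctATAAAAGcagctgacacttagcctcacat
S100a9 promoter, chr3:90695722-90695841, minus strand: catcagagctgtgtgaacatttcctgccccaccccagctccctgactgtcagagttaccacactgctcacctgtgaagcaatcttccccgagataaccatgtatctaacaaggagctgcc
Matches were sought on both strands in windows of 250 bases before to 50 bases after the start. GGAATTTCC lay at -70 to -62 in Cxcl1, -96 to -88 in Cxcl2 and -72 to -64 in Cxcl3, counting the base before the start as -1, and in neither S100 gene. It was present in 104 of 32851 such windows (0.317%). The looser GGNNTTTCC, which includes it and was present in 5.82% of windows, had a further match in Cxcl1 at -89 to -81 on the other strand and in Cxcl2 at -77 to -69. The spelling of these 2 motifs, and the choice of ATAAAAG, were settled after the sequences were seen. ATAAAAG lay at -34 to -28 in Cxcl1, -57 to -51 in Cxcl2 and -29 to -23 in Cxcl3 and S100a8, and in 5.42% of windows. In Cxcl3 and S100a8 it overlaps TATAAA at -30 to -25, which 13.6% of windows held. S100a9 had TATAAA only at 1 to 6, just inside the gene. TGACTCA (5.2% of windows), TGACGTCA (1.79%) and TTNNGCAAT (2.18%), written after the AP-1, CREB and C/EBP sites, had no match in the 5 windows. These are matches of letters and do not show that a factor was bound.

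The deposited signals had no common scale, with trimmed means from 66.6 to 119 per array, and were quantile-normalized. Arrays of one group correlated at r from 0.9865 to 0.9899 across genes, close to the highest r between groups (0.9891), and genes had a median SD of 0.145 (log2) between the arrays of a group. Mapk14 was read by 6 probe sets, 3 of them above the filter. None was called lower in KO than WT arrays in the mean over the times, and the brightest was higher by 0.31 ± 0.08 (SE, limma, adjusted p = 0.0263 among probe sets). The labels do not state which part of the gene was deleted, so genotype below means the label. Of 16 dendritic cell markers 15 were measured, among them Fscn1 with signals of 10100 to 11900 and Ccr7 with 6430 to 8410, while Xcr1 (2.12 to 17.2) and Cd209a (2.14 to 20.9) were low on every array.

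Cxcl2 was the member with the highest 2 h change. Its normalized signal on arrays A and B was 833 and 771 at 0 h, then 4793 and 4643 by 2 h, then 2756 and 2447 by 4 h in KO cells. In WT cells it was 860 and 938 at 0 h, then 4801 and 4917 by 2 h, then 2720 and 2651 by 4 h. Both genotypes were thus highest at 2 h and intermediate at 4 h, and the arrays of different times did not overlap. On the scale used for all tests, log2(signal + 16), Cxcl2 rose at 2 h by 2.53 ± 0.07 (SE, 5.79-fold, adjusted p = 1.09e-12) in KO cells and by 2.41 ± 0.07 (5.33-fold, adjusted p = 1.68e-12) in WT cells. Adjusted p-values are from limma with Benjamini-Hochberg adjustment over the 12792 genes, and a change is called when its adjusted p is under 0.05. These were the 14th highest change in KO cells and the 22nd in WT cells. At 4 h it was still 3.20-fold higher than at 0 h in KO cells and 2.95-fold higher in WT cells, having fallen since 2 h by 0.86 in KO cells (adjusted p = 1.7e-06) and by 0.85 in WT cells (adjusted p = 1.7e-06). In such bulk samples fewer cells of a type and less RNA per cell cannot be told apart.

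**Figure D1:**
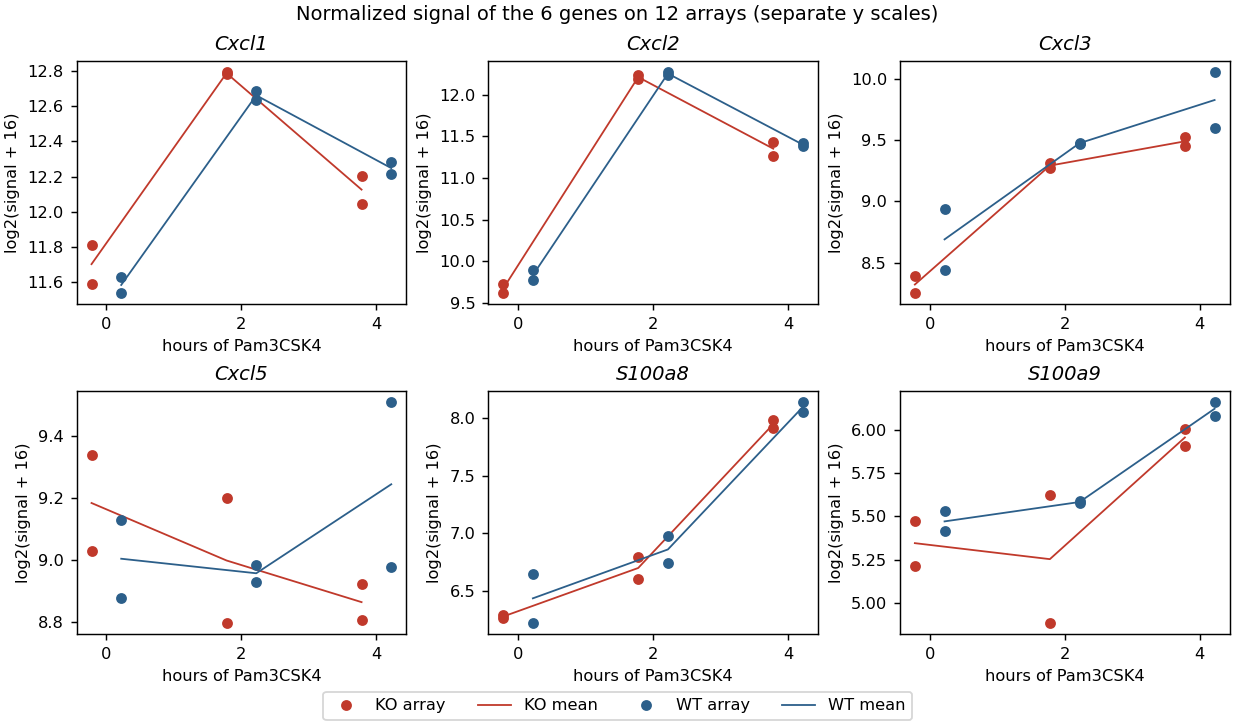
Log2(normalized signal + 16) of each gene on each of the 12 arrays against hours of Pam3CSK4, KO in red and shifted left, WT in blue and shifted right; lines join the means of 2 arrays and each panel has its own y axis. Cxcl1 and Cxcl2 peak at 2 h, S100a8 stands highest at 4 h, and the Cxcl5 arrays of the 3 times overlap in WT cells, while in KO cells those of 4 h lie below those of 0 h.

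Cxcl1, a chemokine gene also known as KC, started from a high signal and peaked at 2 h. On arrays A and B, its brightest probe set gave 3066 and 3581 at 0 h, then 7087 and 7029 by 2 h, then 4706 and 4211 by 4 h in KO cells. In WT cells it gave 3152 and 2953 at 0 h, then 6344 and 6589 by 2 h, then 4738 and 4959 by 4 h. The 2 h arrays of each genotype lay above its 4 h arrays, and those above its 0 h arrays. Cxcl1 rose at 2 h by 1.09 ± 0.07 in KO cells (SE, adjusted p = 3.19e-08) and by 1.08 ± 0.07 in WT cells (adjusted p = 2.77e-08), about 2.1-fold in each genotype. From 2 to 4 h it fell by 0.66 in KO cells (adjusted p = 2.75e-05) and by 0.41 in WT cells (adjusted p = 0.00179). It remained above 0 h at 4 h, by 0.42 in KO cells (adjusted p = 0.000714) and by 0.67 in WT cells (adjusted p = 8.87e-06). On the deposited scale the 4 h call against 0 h in KO cells (adjusted p = 0.169) and the falls after 2 h in KO cells (0.0709) and WT cells (0.374) were lost.

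The 3 probe sets of Cxcl1 gave the same order of times but not the same size of change. At 2 h the change of the set with no suffix was 1.08 ± 0.06 in KO cells and 1.15 ± 0.06 in WT cells, close to that of the brightest set, which carries the suffix _s_at. That of the set with the suffix _x_at was 1.88 ± 0.09 in KO cells and 1.99 ± 0.09 in WT cells, or 3.68-fold in KO and 3.98-fold in WT cells. At 4 h this set stood 0.84 above 0 h in KO cells and 1.23 above it in WT cells. The brightest set read 0.42 in KO and 0.67 in WT cells, and the set with no suffix 0.47 in KO and 0.51 in WT cells. The suffixes _s_at and _x_at mark probe sets that may bind more than one transcript, and the sequences of the probes were not used here, so which set reads Cxcl1 alone was not tested.

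**Figure D2:**
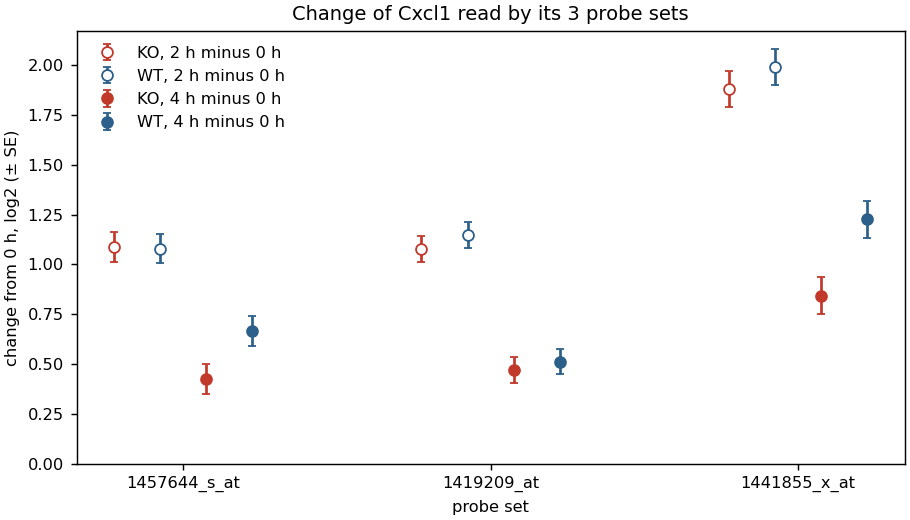
Log2 change from 0 h of the 3 Cxcl1 probe sets, with standard errors; KO red, WT blue, open circles 2 h and filled circles 4 h. The _x_at set reads 1.88 (KO) and 1.99 (WT) at 2 h, above the 1.08 to 1.15 of the other sets.

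Cxcl3, first described in the mouse as dendritic cell inflammatory protein 1, rose by 2 h and did not fall back. Its signal on arrays A and B was 288 and 320 at 0 h, then 604 and 619 by 2 h, then 687 and 721 by 4 h in KO cells. In WT cells it was 332 and 474 at 0 h, then 694 and 699 by 2 h, then 761 and 1050 by 4 h. In WT cells the arrays of 0 h were wide apart, as were those of 4 h, with B the higher of each pair. Cxcl3 rose at 2 h by 0.97 ± 0.14 in KO cells (SE, adjusted p = 0.000156) and by 0.79 ± 0.14 in WT cells (adjusted p = 0.000902). At 4 h it stood above 0 h by 1.17 ± 0.14 in KO cells (2.25-fold, adjusted p = 2.6e-05) and by 1.14 ± 0.14 in WT cells (2.20-fold, adjusted p = 3.07e-05). Between 2 and 4 h it differed by 0.20 in KO cells (95% interval -0.11 to 0.50, adjusted p = 0.408) and by 0.35 in WT cells (0.05 to 0.66, adjusted p = 0.141), where Cxcl1 and Cxcl2 fell. The WT value was called without WT 4 h A (0.58, adjusted p = 0.0349). On the deposited scale the 2 h calls of Cxcl3 were lost in KO cells (0.50, adjusted p = 0.116) and WT cells (0.46, adjusted p = 0.178).

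Cxcl5, a chemokine gene also known as LIX, showed no called change with time in either genotype. Its signal on arrays A and B was 507 and 631 at 0 h, then 429 and 572 by 2 h, then 432 and 469 by 4 h in KO cells. In WT cells it was 455 and 544 at 0 h, then 472 and 491 by 2 h, then 489 and 714 by 4 h. The arrays of the 3 times overlapped in WT cells, and in KO cells only the 4 h and 0 h arrays stood apart. At 2 h Cxcl5 differed from 0 h by -0.19 in KO cells (95% interval -0.53 to 0.15, adjusted p = 0.47) and by -0.05 in WT cells (-0.39 to 0.29, adjusted p = 0.885). At 4 h it differed by -0.32 in KO cells (-0.66 to 0.02, adjusted p = 0.201) and by 0.24 in WT cells (-0.10 to 0.58, adjusted p = 0.362). All 4 intervals end below the 2 h change of Cxcl1. On the deposited scale, where all genes had a median of -0.41, the 2 h value in KO cells was called (-0.65, adjusted p = 0.0448).

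Unlike Cxcl1 and Cxcl2, S100a8 was highest at 4 h. Its signal on arrays A and B was 61.0 and 62.2 at 0 h, then 81.1 and 95.3 by 2 h, then 225 and 237 by 4 h in KO cells. In WT cells it was 58.7 and 84.4 at 0 h, then 91.2 and 110.0 by 2 h, then 250 and 266 by 4 h. The 4 h arrays were far above all others in each genotype, while those at 2 h were only just above 0 h. At 4 h S100a8 rose over 0 h by 1.67 ± 0.14 in KO cells (SE, 3.18-fold, adjusted p = 5.63e-07) and by 1.66 ± 0.14 in WT cells (3.16-fold, adjusted p = 4.98e-07). The step from 2 to 4 h was 1.25 in KO cells (adjusted p = 3.3e-05) and 1.24 in WT cells (adjusted p = 3.91e-05), the 18th and the 11th highest of all genes. At 2 h it was 0.42 ± 0.14 in both genotypes, called in WT cells (adjusted p = 0.048) and just missed in KO cells (adjusted p = 0.0503). The 2 h call in WT cells was lost in 16 of 22 alternative analyses, among them the deposited scale (0.05, adjusted p = 0.891) and the fit without WT 0 h A (0.21, adjusted p = 0.431). The other single arrays whose removal lost it were both KO 0 h, both KO 4 h, both WT 2 h and both WT 4 h arrays. The KO value became called without WT 0 h A or B, with a pseudocount of 1 (adjusted p = 0.0473), with the filter at the 60th percentile (0.0396) and with the letters as a block (0.0245). On the deposited scale the 2 h change in KO cells was -0.005. S100a8 was read by 1 probe set, which carries the suffix _s_at.

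S100a9, whose protein pairs with S100A8, had low signals, near the filter level of 10.6 on 1 array. On arrays A and B it read 21.1 and 28.5 at 0 h, then 13.5 and 33.2 by 2 h, then 48.1 and 44.0 by 4 h in KO cells. In WT cells it read 26.6 and 30.1 at 0 h, then 32.2 and 31.6 by 2 h, then 51.7 and 55.5 by 4 h. The 4 h arrays were the highest in each genotype. At 4 h S100a9 differed from 0 h by 0.61 ± 0.21 in KO cells (SE, adjusted p = 0.059) and rose by 0.65 ± 0.21 in WT cells (adjusted p = 0.0436). From 2 to 4 h it rose by 0.70 ± 0.21 in KO cells (adjusted p = 0.0383) and differed by 0.54 ± 0.21 in WT cells (adjusted p = 0.127). The WT 4 h call was lost in 13 of 23 alternatives (adjusted p up to 0.222) and the KO call from 2 to 4 h in 10 of 23, one of them without KO 2 h A, the lowest array (0.33, adjusted p = 0.334). Removing either KO 4 h array or any WT array lost the WT 4 h call, and removing either 4 h array of either genotype lost the KO call. The KO 4 h value against 0 h became called without KO 2 h A or B, and the WT value from 2 to 4 h without KO 2 h A. That KO 4 h value was also called with a pseudocount of 64 (adjusted p = 0.0424) and with the filter at the 60th percentile (0.0472). It was called as well with only the arrays of the groups compared (0.0383) and with the letters as a block (0.0476). At 2 h the difference from 0 h was -0.09 in KO cells (95% interval -0.54 to 0.36) and 0.11 in WT cells (-0.34 to 0.56). Folds on this scale understate changes at such low signals.

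**Figure D3:**
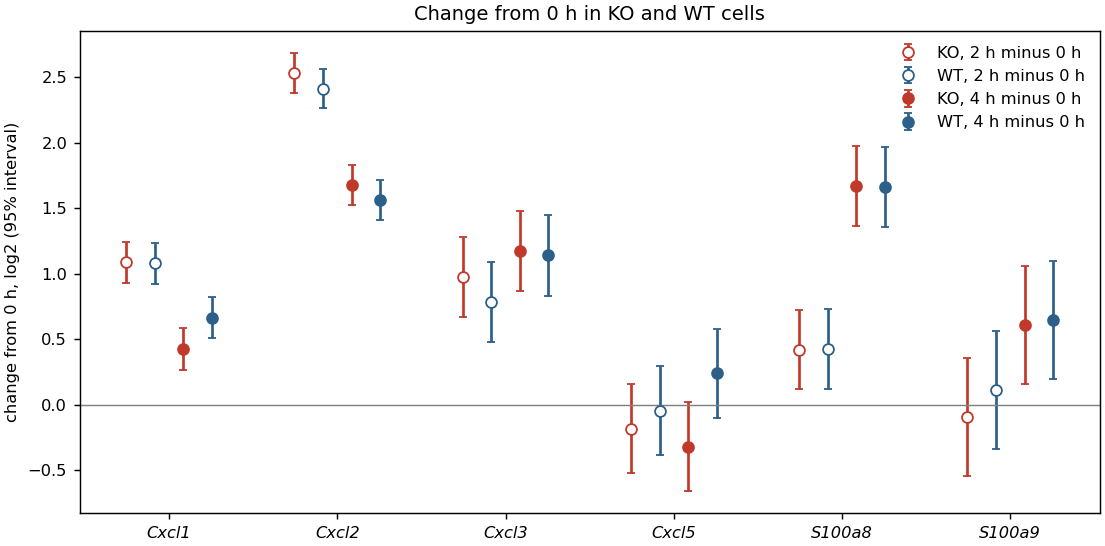
Log2 change of each gene from 0 h with 95% intervals from the limma fit; KO red, WT blue, open circles 2 h, filled circles 4 h. For Cxcl1 and Cxcl2 the open circles (2 h) stand above the filled ones, for S100a8 the filled ones (4 h) stand higher, and all 4 intervals of Cxcl5 include 0.

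Counted together, 3 of the 6 genes rose at 2 h in KO cells, against 7.85% of all genes tested, and 4 in WT cells, against 8.43%. None was called lower, while 11.7% of all genes fell in KO cells and 11.5% in WT cells. At 4 h 4 rose over 0 h in KO cells (7.24% of all genes) and 5 in WT cells (8.31%). Again none was called lower, against 10.9% of all genes in KO and 9.9% in WT cells. The median change of the 6 was 0.70 in KO and 0.61 in WT cells at 2 h and 0.89 in KO and 0.90 in WT cells at 4 h, while that of all genes lay between -0.06 and -0.02. From 2 to 4 h the set split. In KO cells S100a8 and S100a9 rose (6.46% of all genes rose) and Cxcl1 and Cxcl2 fell (7.25%). In WT cells S100a8 rose (5.32%) and Cxcl1 and Cxcl2 fell (5.75%). The 6 genes and the gene lists below were chosen with earlier results of these data known. Their counts beside those of all genes are therefore a description and not a test.

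Ordered by mean level, Cxcl1 ran from KO 2 h, WT 2 h, WT 4 h and KO 4 h down to KO 0 h and WT 0 h, and its 0 h groups overlapped. For Cxcl2 both 2 h groups came first, then both 4 h groups, which overlapped, then both 0 h groups. Cxcl3 was highest in WT 4 h, followed by KO 4 h and WT 2 h, which overlapped, then KO 2 h, WT 0 h and KO 0 h. For Cxcl5 each of the first 4 steps in the order WT 4 h, KO 0 h, WT 0 h, KO 2 h, WT 2 h and KO 4 h was between overlapping groups. S100a8 ran from WT 4 h and KO 4 h, across a gap of 1.09, to WT 2 h, KO 2 h, WT 0 h and KO 0 h, each overlapping its neighbour. S100a9 had WT 4 h and KO 4 h at the top and overlap among WT 0 h, KO 0 h and KO 2 h at the bottom.

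Genotype was compared at each time and over all times. In KO against WT cells limma called 0 of 6 at 0 h (3.3% of all genes were called), 0 at 2 h (2.3%) and 0 at 4 h (2.39%). At an unadjusted p under 0.05 there were 2 at 0 h (Cxcl2 and Cxcl3), 0 at 2 h and 2 at 4 h (Cxcl3 and Cxcl5). Of all 12792 genes, 1860 were under that level at 0 h, 1905 at 2 h and 1762 at 4 h. Averaged over the 3 times 1 was called, Cxcl3, against 10.5% of all genes called either way and 4.28% called lower. Cxcl3 was lower in KO cells by -0.30 ± 0.08 (SE, 95% interval -0.47 to -0.12, adjusted p = 0.0316), and at each of the 3 times both KO arrays lay below both WT arrays. The single-time differences were -0.37 at 0 h (adjusted p = 0.224), -0.18 at 2 h (0.602) and -0.34 at 4 h (0.303). The averaged call was lost in 12 of 23 alternatives, 9 of which left out 1 array: KO 0 h A, either KO 2 h array, either KO 4 h array, WT 0 h B, either WT 2 h array or WT 4 h B. The averaged difference was -0.21 without WT 0 h B and -0.22 without WT 4 h B. In the limma fit among all probe sets above the filter it was not called (adjusted p = 0.0531). Without WT 0 h A, Cxcl3 was called lower in KO cells at 0 h (-0.62, adjusted p = 0.0287).

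For the other 5 genes the averaged KO minus WT difference was not called. It was 0.04 for Cxcl1 (95% interval -0.05 to 0.13) and -0.08 for Cxcl2 (-0.17 to 0.00, adjusted p = 0.235). It was -0.05 for Cxcl5 (-0.25 to 0.14), -0.16 for S100a8 (-0.33 to 0.02, adjusted p = 0.275) and -0.21 for S100a9 (-0.47 to 0.05, adjusted p = 0.342). The intervals of Cxcl1 and Cxcl2 are narrow beside their 2 h changes.

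The responses were compared directly as the KO change minus the WT change. Limma called 0 of 6 genes at 2 h and 0 at 4 h, where 0.0313% and 0.0469% of all genes were called. At an unadjusted p under 0.05 there were 0 of the 6 at 2 h and 2 at 4 h. Of all 12792 genes, 754 at 2 h and 775 at 4 h were under that level. At 2 h the difference was 0.01 for Cxcl1 (95% interval -0.22 to 0.23), 0.12 for Cxcl2 (-0.10 to 0.33) and 0.19 for Cxcl3 (-0.25 to 0.62). It was -0.14 for Cxcl5 (-0.62 to 0.34), 0.00 for S100a8 (-0.43 to 0.43) and -0.20 for S100a9 (-0.84 to 0.43). At 4 h Cxcl5 had the largest, -0.56 (-1.04 to -0.08, unadjusted p = 0.0254, adjusted p = 0.758), with a KO change of -0.32 and a WT change of 0.24. Cxcl1 followed with -0.24 (-0.47 to -0.02, unadjusted p = 0.0372, adjusted p = 0.817). Its probe set with no suffix gave -0.04 (-0.24 to 0.15) and the _x_at set -0.38 (-0.66 to -0.10). For Cxcl2 the 4 h difference was 0.11, for Cxcl3 0.03, for S100a8 0.01 (-0.42 to 0.44) and for S100a9 -0.04.

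**Figure D4:**
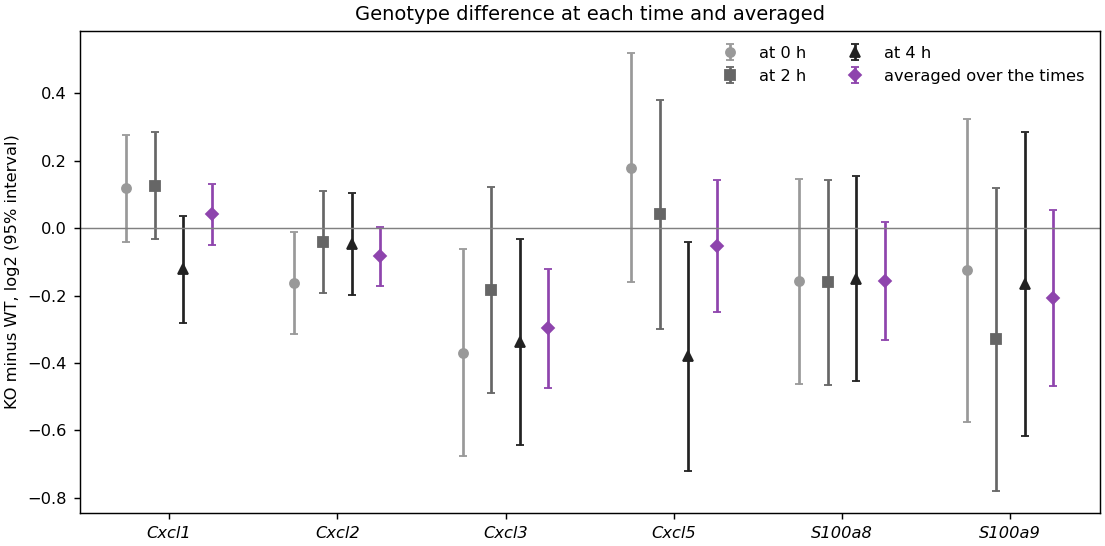
KO minus WT difference of each gene on the log2 scale with 95% intervals, at 0 h (circles), 2 h (squares), 4 h (triangles) and averaged over the times (diamonds). The averaged interval excludes 0 for Cxcl3 (-0.47 to -0.12) and includes or touches it for the other 5 genes.

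The member genes lie in 2 gene clusters, in which no tested neighbour was called higher than 0 h. Of all genes 7.24% to 8.43% were called higher and 9.9% to 11.7% lower than 0 h at 2 or 4 h. On GRCm38.p6 the chemokine genes lie on chromosome 5: Cxcl5 at 90759298 to 90761625, Cxcl3 at 90786101 to 90788093, Cxcl1 at 90891245 to 90893121 and Cxcl2 at 90903899 to 90905938. Between or beside them, the platelet chemokine genes Ppbp and Pf4, Rassf6, Mthfd2l and the growth factor genes Epgn and Ereg were tested. Of these 6, 1 was called lower than 0 h at 2 or 4 h, Pf4 at 4 h in KO cells (-0.62, adjusted p = 0.0135). Their changes ran from -0.62 to 0.68. Ereg, which encodes epiregulin, came closest to a rise at 2 h with 0.58 in WT cells (adjusted p = 0.0545) and 0.15 in KO cells. S100a8 (90669071 to 90670034) and S100a9 (90692630 to 90695721) lie on chromosome 3. Of their tested neighbours, S100a5 was not called against 0 h and S100a6 was lower in WT cells at 2 h (-0.38, adjusted p = 0.0254) and 4 h (-0.44, adjusted p = 0.0122).

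**Figure D5:**
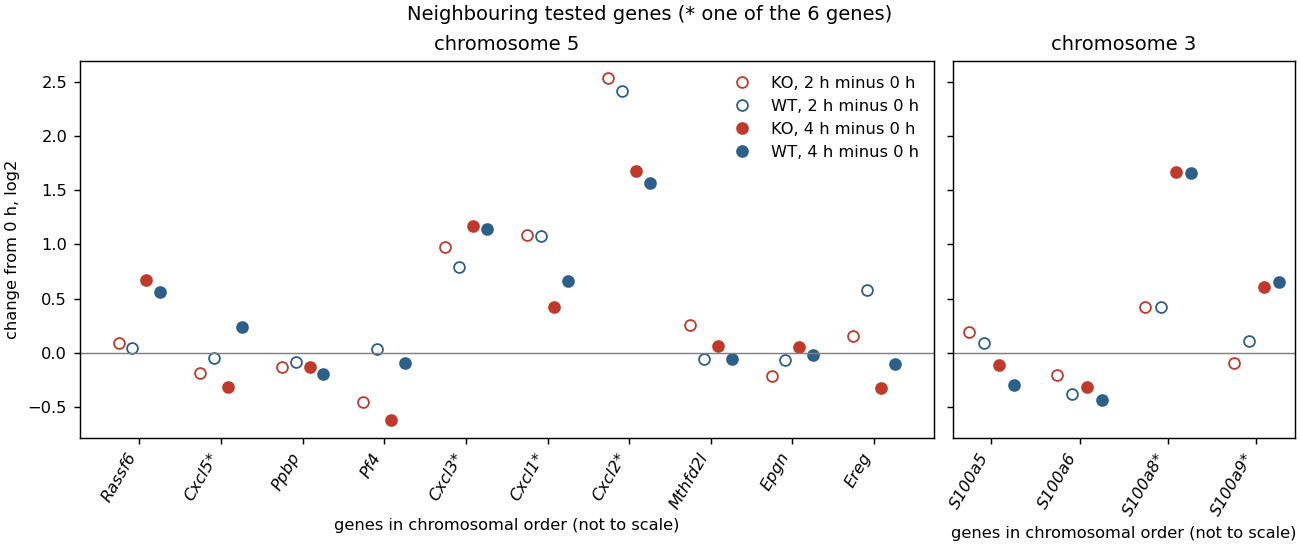
Log2 change from 0 h of the member genes (starred) and their tested neighbours in chromosomal order, not to scale; KO red, WT blue, open circles 2 h, filled circles 4 h. Cxcl2 stands highest at 2 h (2.53 in KO, 2.41 in WT cells); the neighbours of the chemokine genes lie between -0.62 (Pf4) and 0.68 (Rassf6, KO 4 h, not called), and S100a8 stands far above S100a5 and S100a6 at 4 h.

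Across the 12 arrays the members fell into patterns, described here by Pearson's r with no test, since all values share the same arrays and groups. Cxcl1 and Cxcl2 had r = 0.96, Cxcl2 and Cxcl3 0.78, S100a8 and S100a9 0.86, and Cxcl3 and S100a8 0.82. Cxcl5 had r between -0.23 and 0.31 with the others. The genes nearest to each member were sought among the tested genes, passing over members, clone-like names and antigen receptor segments. Closest to Cxcl1 were Ccl20, which encodes the ligand of CCR6 (0.986), Tnfaip3, which encodes the NF-kB inhibitor A20 (0.978), and the kinase gene Stk17b (0.976). Ccl20 rose by 2.51 at 2 h in KO and WT cells and stood at 1.41 in KO and 1.40 in WT cells at 4 h. Nearest to Cxcl2 were Ncoa7, a coactivator gene, Cdk5r1, which encodes the p35 activator of CDK5, and the phosphatase gene Dusp14, all at 0.994. Nearest to Cxcl3 were Ehd1, a gene of endocytic recycling (0.979), the amino acid transporter gene Slc6a14 (0.975) and Rab32 (0.955).

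The genes nearest to S100a8 were Ifng, which encodes interferon gamma (0.970), the myosin kinase gene Mylk (0.968) and Phip (0.966). Ifng rose by 1.80 in KO and 2.16 in WT cells at 2 h and by 5.02 in KO and 4.80 in WT cells at 4 h. Of 9 tested T cell and NK cell markers, 2 were higher at 4 h than 0 h in each genotype, the NK receptor gene Ncr1 (0.93 in KO and 0.87 in WT cells) and the granzyme gene Gzmb (0.58 in KO and 0.47 in WT cells). Of all genes 7.24% in KO and 8.31% in WT cells were higher at 4 h. At 4 h 1 of the 9 markers was lower in KO (10.9% of all genes) and 3 in WT cells (9.9%). From 2 to 4 h 3 were higher in KO (6.46%) and 3 in WT cells (5.32%), and 0 lower (7.25% and 5.75%). Summed over the 10 measured markers, the signal was 3558 to 3806 in KO and 3706 to 4177 in WT cells at 0 h. The sum was 2519 to 2524 in KO and 2670 to 2875 in WT cells at 2 h. By 4 h it was 3362 to 3389 in KO and 3143 to 3404 in WT cells. The T cell genes Cd3d and Cd8b1 read 264 to 382 and 186 to 330 over all arrays. The part of these cells in the S100a8 values was not tested. The genes nearest to S100a9 were 3 of mitochondrial function, Cox17 (0.920), Tmem70 (0.904) and Mrps12 (0.890), and their 4 h changes of 0.31 to 0.59 were small. Nearest to Cxcl5 were Kmo, an enzyme gene of tryptophan breakdown (0.826), Cdhr4 (0.819) and Naa40 (0.814), none of which was called against 0 h.

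Of the genes that act beside these chemokines, few gave a signal above the filter, 2 of 4 measured. Cxcr2, the signalling receptor of all 4 chemokines, lay below the filter (signals 1.19 to 17.4), as did the chemokine gene Cxcl15, and Ppbp was tested without a call. Ackr1, which encodes a decoy receptor that binds many chemokines, was higher in KO than WT cells in the mean over the times (0.66 ± 0.08, SE, adjusted p = 6.28e-05). It rose at 2 h in WT cells (0.89, adjusted p = 0.000257). Of the genes for the best known receptors of S100A8/A9, Tlr4 had no called change and Ager, which encodes RAGE, lay below the filter (1.24 to 13.1). Of 8 tested receptor and partner genes 2 rose at 2 h in each genotype, Cd14 and Alcam (7.85% of all genes in KO, 8.43% in WT cells). At 2 h 1 fell in KO (11.7%) and 0 in WT cells (11.5%). At 4 h 3 rose in KO (7.24%) and 3 in WT cells (8.31%). At 4 h 2 fell in KO (10.9%) and 1 in WT cells (9.9%). The lipid scavenger receptor gene Cd36 read -0.75 in KO cells (adjusted p = 0.00203) and -0.30 in WT cells (adjusted p = 0.187) at 2 h. Cd14, the co-receptor of TLR2 and TLR4, rose by 1.38 in KO and 1.42 in WT cells, and at 4 h the adhesion gene Alcam stood at 2.22 in KO and 2.12 in WT cells. Alcam was called lower in KO than WT cells at each of the 3 times and averaged over them (-0.52, adjusted p = 6.83e-06).

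Several genes rose as well in a list for other factors that attract or sustain neutrophils, their receptors and their synthesis. Of 13 tested, 7 rose at 2 h in KO (7.85% of all genes) and 7 in WT cells (8.43%). Lower were 0 in KO (11.7%) and 1 in WT cells (11.5%). Their median was 0.53 in KO and 1.21 in WT cells, against -0.06 and -0.05 for all genes. The chemokine gene Ccl3 rose by 1.96 in KO and 2.11 in WT cells, Csf2, which encodes GM-CSF, by 1.99 in KO and 2.03 in WT cells, and Csf3, which encodes the neutrophil growth factor G-CSF, by 1.92 in KO and 1.96 in WT cells. Like Cxcl1 and Cxcl2, Csf3 was lower at 4 than at 2 h, by -1.27 in KO cells (adjusted p = 5.27e-06) and -1.24 in WT cells (adjusted p = 7.83e-06). At 4 h 7 of the 13 stood above 0 h in KO (7.24% of all genes) and 7 in WT cells (8.31%). Below it were 3 in KO (10.9%) and 2 in WT cells (9.9%). Ccl6 was the member of this list whose response differed between genotypes, by -1.34 ± 0.17 at 2 h (adjusted p = 0.00461) and -1.33 ± 0.17 at 4 h (adjusted p = 0.00501). At 0 h Ccl6 was higher in KO than WT cells by 1.04 (adjusted p = 0.000112), and it was not called at 2 h (-0.30) or 4 h (-0.29). Of the 13 genes 4 were called higher in KO cells at 0 h, Ccl6, Ccl9, Ccl3 and Ccl4, and 0 lower. Of all genes 3.3% were called there in either direction.

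Inducers of these chemokines and the signalling between them gave 7 of 13 tested genes higher at 2 h in each genotype and none lower. Of all genes 7.85% in KO and 8.43% in WT cells were higher then, and 11.7% and 11.5% lower. At 4 h 5 of the 13 were higher in KO (7.24% of all genes) and 4 in WT cells (8.31%). Lower were 0 in KO (10.9%) and 1 in WT cells (9.9%). Tnf rose at 2 h by 3.82 in KO and 3.62 in WT cells, Il1a by 2.97 in KO and 2.82 in WT cells, and Nfkbiz, which encodes the IkBζ cofactor, by 2.43 in KO and 2.46 in WT cells. At 4 h Tnf and Il1a were higher in KO than WT cells (0.68, adjusted p = 0.00991, and 0.63, adjusted p = 0.0314), while Cxcl1 (-0.12, adjusted p = 0.52) and Cxcl2 (-0.05, adjusted p = 0.838) were not called. At 0 h Il1b (-0.46, adjusted p = 0.00536) and Il17a (-0.71, adjusted p = 0.0165) were lower and the receptor gene Il1r1 (0.64, adjusted p = 0.0205) higher in KO than WT cells. Of 12 tested genes for proteins that set the decay of such messages, 2 rose and 3 fell in KO cells at 2 h, where 7.85% of all genes rose and 11.7% fell. In WT cells 2 rose and 5 fell, where 8.43% of all genes rose and 11.5% fell. Zfp36, which encodes tristetraprolin, fell by 0.94 in KO and 0.93 in WT cells at 2 h, and Zc3h12a, which encodes the RNase Regnase-1, rose by 1.93 in KO and 1.71 in WT cells. Averaged over the times Zfp36 was lower in KO than WT cells (-0.28 ± 0.04, SE, adjusted p = 0.000392).

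None of the other S100 genes was called higher when S100a8 rose. Of 8 tested, 0 were higher at 2 or 4 h in either genotype by limma, also at an unadjusted p under 0.05. Of all genes 7.24% to 8.43% were higher in these comparisons. At 2 h 0 of the 8 fell in KO (11.7% of all genes) and 3 in WT cells (11.5%). At 4 h 3 fell in KO (10.9%) and 2 in WT cells (9.9%). S100a4, which encodes a calcium-binding protein of motile cells, fell at 4 h by 0.30 in KO cells (adjusted p = 0.0166) and by 0.77 in WT cells (adjusted p = 4.62e-06). S100a10, the partner of annexin A2, was lower in KO than WT cells averaged over the times (-0.51 ± 0.04, SE, adjusted p = 5.22e-07), and S100a4 was higher (0.46 ± 0.05, adjusted p = 8.28e-06).

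Because S100a8 and S100a9 are neutrophil and monocyte genes, markers of those cells were read beside them. Of 27 neutrophil markers 21 were measured and 12 passed the filter. None was called higher than 0 h, at 2 or 4 h, in either genotype by limma, where 7.24% to 8.43% of all genes were. At an unadjusted p under 0.05 the numbers higher were 1 in KO and 1 in WT cells at 2 h and 2 in KO and 0 in WT cells at 4 h. Anxa1, which other cells also use, was the 1 marker called lower at 4 h, in both genotypes (10.9% of all genes in KO, 9.9% in WT cells). Most granule genes were low on every array, with signals of 4.16 to 43.6 for Elane, 8.47 to 17.6 for Mpo, 1.82 to 15.3 for Camp and 6.07 to 18.9 for Ngp. The granule gene Ltf, which encodes lactoferrin, was higher at 64.8 to 123 on every array, with no called change against 0 h. The list also holds Lcn2 (2040 to 3580), which activated dendritic cells and macrophages can express. Summed over the 21 genes the signal was 5483 to 5614 in KO and 5458 to 6791 in WT cells at 0 h, 4840 to 5692 in KO and 5363 to 5527 in WT cells at 2 h, and 5001 to 5145 in KO and 5582 to 5699 in WT cells at 4 h. Lcn2 gives a large part of this sum, which therefore does not measure neutrophils alone. At 4 h, when S100a8 rose in both genotypes, the median change of the 12 tested markers was 0.20 in KO and 0.04 in WT cells. That of all genes was -0.05 in KO and -0.02 in WT cells. The part of neutrophils in the S100a8 and S100a9 values was not tested.

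Against 0 h, monocyte and macrophage markers were called lower more often than higher, while S100a8 was highest at 4 h. Of 15 tested, 0 rose at 2 h in KO (7.85% of all genes) or WT cells (8.43%), and 9 fell in KO (11.7%) and 5 in WT cells (11.5%). At 4 h 1 rose in each genotype, Adgre1 (7.24% of all genes in KO, 8.31% in WT cells). At 4 h 9 fell in KO (10.9%) and 8 in WT cells (9.9%), for example Csf1r (-1.15 in KO and -1.27 in WT cells). From 2 to 4 h, where S100a8 had its larger step, 1 rose in KO (6.46%) and 1 in WT cells (5.32%). In that step 2 fell in KO (7.25%) and 2 in WT cells (5.75%). The median of the markers was then -0.08 in KO and -0.05 in WT cells, against 0.00 and 0.02 for all genes. Summed over the 16 measured markers, the signal was 10020 to 10260 in KO and 6594 to 6642 in WT cells at 0 h. The sum was 7448 to 7689 in KO and 4991 to 5260 in WT cells at 2 h. By 4 h it was 6863 to 7323 in KO and 4625 to 4945 in WT cells. It was thus higher in KO cells at every time. In the averaged genotype difference 9 of 15 were higher in KO cells and 0 lower, where 10.5% of all genes were called either way. The 9 were led by the lysozyme genes Lyz2 (0.95, adjusted p = 5.93e-09) and Lyz1 (0.94, adjusted p = 5.93e-09) and by C1qa (0.75). In the same difference S100a8 read -0.16 and S100a9 -0.21, neither called. The part of these cells in the values of the members was not tested.

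Markers of stromal, endothelial and epithelial cells, the usual sources of Cxcl5, were read for the same reason. Of 18 tested, 0 were called at 2 h, higher (7.85% of all genes in KO, 8.43% in WT cells) or lower (11.7% and 11.5%). At an unadjusted p under 0.05, 1 was higher and 2 lower in KO cells and 3 higher and 0 lower in WT cells. At 4 h 5 fell in KO (10.9% of all genes) and 2 in WT cells (9.9%), and 0 rose (7.24% and 8.31%). Their summed signal was 10390 to 10810 in KO and 9421 to 9736 in WT cells at 0 h, 10860 to 12120 in KO and 10030 to 10520 in WT cells at 2 h, and 8152 to 8628 in KO and 8177 to 8268 in WT cells at 4 h. Their part in the Cxcl5 signal was not tested. Of 8 tested platelet markers, which would accompany Pf4 and Ppbp, the only call against 0 h was Pf4 itself in KO cells at 4 h. Of all genes 7.24% rose and 10.9% fell in that comparison.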

How the data were processed

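Mouse lymph node dendritic cells were isolated and kept in culture, and their RNA was hybridised to 12 single-colour Affymetrix 3' arrays, per the labels' protocols. The deposited values are linear intensity signals for each probe set, made with MAS5 as named in the submitters' processing notes; the labels state neither its version nor its scaling. The number of arrays limits the precision.

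Signals as deposited lay between 0.018 and 12902, with a 1.79-fold spread of trimmed means over the arrays. They were quantile-normalized and tested as log2(signal + 16). Of 45101 probe sets 34958 had 1 gene symbol and 932 several. The probe set with the highest mean stood for each of 18194 genes, and 12792 had a mean at or above the 40th percentile of all probe sets (10.6 as a signal). Limma 3.58.1 in R 4.3.3 fitted 6 group means to all arrays (eBayes with trend, 6 residual and 9.13 prior degrees of freedom), two-sided, with Benjamini-Hochberg adjustment over all tested genes in each of 12 comparisons. Member probe sets were also fitted among all probe sets above the filter. The fit was tested on simulated data. Alternatives changed the scale between arrays, pseudocount, filter, choice of probe set, variance model, arrays in the fit and replicate block, or left out 1 array. Genotype and time came from the labels. The letters A and B were not used as pairs in the main fit. Of 15 pairs of groups only 1 had a correlation of deviations over 0.1 (range -0.0422 to 0.1045). This does not exclude pairing, which the labels do not state.

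The members and gene lists were chosen with earlier results of these data known. Named genes are the members, up to 3 called genes of each pathway list and comparison by smallest p, the 3 genes most correlated with each member and the tested neighbours. The search for correlated genes passed over the members, genes with clone-like names (such as Rik, or Gm and digits) and antigen receptor segments. Single cell type markers, Tlr4, Ager, Cxcr2, Cxcl15 and Ppbp were named outside that rule, after their values were seen.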

Additional observations from a re-analysis of the deposited data

How the results depend on the processing

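Of 72 member changes 24 were called, and 15 of those kept their direction and call under every alternative run (23, or 22 for S100a8, which has no probe set without a suffix): the 2 h rises of Cxcl1, the 4 h rise of Cxcl1 in WT cells, the 6 changes of Cxcl2 with time, the 4 h rises of Cxcl3 and the 4 changes of S100a8 at 4 h against 0 or 2 h. The other 9 are those whose losses are given with the results. The limma fit among all probe sets above the filter also lost calls. They were the averaged Cxcl3 difference (adjusted p = 0.0531), S100a8 at 2 h in WT cells (0.0742) and S100a9 at 4 h against 0 h in WT cells (0.0663). S100a9 from 2 to 4 h in KO cells (0.0603) was lost as well. Without normalization between arrays the median of all genes shifted by -0.41 at 2 h in KO cells and -0.35 in WT cells, and changes there include that shift. On that deposited scale 2 members were called in KO cells from 2 to 4 h, with 303 of 12787 genes called, and 2 in WT cells at 2 h, with 2291 of 12787. After normalization 4 members were called in each, with 827 genes higher and 927 lower of 12792 in KO cells from 2 to 4 h, and 1079 higher and 1467 lower in WT cells at 2 h. With no filter, with the mean of all probe sets or with no variance trend, 0 were called in the averaged KO minus WT difference. Leaving out 1 array in turn gave 0 to 1 there and 0 to 1 at 0 h. The letters A and B as a replicate block raised the members called in KO cells to 4 at 2 h and 6 at 4 h, adding S100a8 at 2 h (adjusted p = 0.0245), S100a9 at 4 h (0.0476) and Cxcl5 at 4 h (-0.32, adjusted p = 0.0435). Whether the letters pair the arrays is not stated in the labels.

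Signs turned in uncalled differences only, and the cause was not tested. On the deposited scale these were, for KO minus WT, Cxcl1 at 0 h (-0.053), 2 h (-0.034) and averaged (-0.10) and Cxcl5 at 2 h (-0.24). They were also Cxcl5 from 2 to 4 h in KO cells (0.17), S100a8 at 2 h in KO cells (-0.005), S100a9 at 2 h in WT cells (-0.16), and the 4 h response difference of Cxcl3 (-0.021) and S100a8 (-0.034). With the Cxcl1 probe set that has no suffix, KO minus WT was -0.047 at 2 h and -0.014 averaged, and the 2 h response difference -0.069, against -0.057 for the mean of its sets. The 2 h response difference of S100a8 was 0.003 with a pseudocount of 1 and 0.027 on the trimmed-mean scale, and the 4 h one -0.024 with a pseudocount of 64.

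Leaving out 1 array, Cxcl5 ran from -0.39 to 0.016 at 2 h in KO cells, -0.17 to 0.079 at 2 h in WT cells, -0.026 to 0.51 at 4 h in WT cells and -0.34 to 0.067 from 2 to 4 h in KO cells. Its KO minus WT difference ran from -0.16 to 0.24 at 2 h and -0.14 to 0.036 averaged, and its 2 h response difference from -0.34 to 0.063. S100a9 ran from -0.46 to 0.28 at 2 h in KO cells, and its KO minus WT difference from -0.26 to 0.0045 at 0 h and -0.70 to 0.038 at 2 h. Its response difference ran from -0.57 to 0.16 at 2 h and -0.17 to 0.090 at 4 h. S100a8 ran from -0.37 to 0.055 for KO minus WT at 0 h, and its response difference from -0.22 to 0.21 at 2 h and -0.21 to 0.22 at 4 h. The Cxcl3 response difference ran from -0.062 to 0.43 at 2 h and -0.22 to 0.28 at 4 h, that of Cxcl1 from -0.10 to 0.12 at 2 h, and Cxcl2 KO minus WT from -0.13 to 0.037 at 4 h. The lowest signals, those of S100a9, lay nearest to background.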
